A study of Mus musculus with 8 samples.

Results

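The genes described here are 10 immediate early response genes measured in the left ventricle of mice kept on a normal or a low sodium diet: Fos, Fosb, Jun, Junb, Egr1, Ier2, Ier3, Atf3, Myc and Nr4a1. They were taken by gene name, whatever their values, from the non-control probes of a mouse 60-base oligonucleotide array. Each was represented by 1 probe, and all 10 were among the 18250 genes and transcripts kept for testing. The animals were male C57Bl/6j mice. There were 4 mice on normal salt (0.4% Na) and 4 on low salt (0.05% Na), each fed the diet for 8 weeks, from 8 to 16 weeks of age. Septum, free wall and apex of the ventricle were collected under pentobarbital, so all 8 hearts share that anaesthetic. Each of 4 arrays held 2 mice of the same diet in different dyes, Cy3 for mice 1 and 3 and Cy5 for mice 2 and 4. Mice 1 and 2 of a diet shared an array, as did mice 3 and 4, so diet differed only between arrays.

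Immediate early genes are transcribed within minutes of a stimulus, with no need for new protein, and their mRNAs are short-lived. MAP kinase, calcium and cyclic AMP signals reach their promoters through transcription factors that are already present, such as serum response factor with its ELK partners and CREB. Most of the products are themselves transcription factors, which then switch on or off a second set of genes. In the heart these genes are known for their response to stretch, adrenergic stimulation, ischaemia and the handling of the tissue itself.

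All values are log2 intensities of a mouse in its own dye, after background correction and normalization, and they are compared between mice for the same probe only. Median probe signals of the 8 samples lay between 113 and 143 on the linear scale, and 53.0% to 66.3% of spots were well above background. All 10 cardiomyocyte markers were measured. The 8 atrial markers, by contrast, averaged 1.34 above their dye mean in normal salt mouse 3 and between -0.65 and 0.64 in the other mice. The heart is a mixture of cell types, and in bulk tissue fewer cells of a type and less RNA per cell cannot be told apart. Over all genes, 147 of 18250 (0.805%) passed an adjusted p of 0.05 for diet in limma, 140 of them higher and 7 lower on low salt. With the mouse number as a block this count was 233, and with the second low salt array (mice 3 and 4) left out it was 1090. It was 53 to 128 with any 1 mouse left out, 36 with the scanner's processed signal and 14 on the evenly hybridised parts of the arrays, which were chosen after the values had been seen. Those parts held 17438 of the 18250 genes, namely those whose neighbouring probes differed by 0.2 or less between the diets. The count was 0 with each array averaged to 1 value, with either dye alone and with no normalization between arrays. In these fits 1590, 1862 (Cy3), 1261 (Cy5) and 781 genes had an unadjusted p under 0.05 in limma.

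The probes are shown for the 5 members on which the account turns, because each value rests on the single sequence that the probe reads. The first 30 bases of each 60-base probe are given 5′ to 3′ as deposited, in the sense of the mRNA, and the mm9 position in the files is that of the whole probe. No base is singled out by capitals. The Ier3 probe lies at chr17:35959528-35959587 (plus strand), the Fos probe at chr12:86817900-86817959 (plus strand), the Nr4a1 probe at chr15:101105071-101105130 (plus strand), the Atf3 probe at chr1:192994547-192994606 (minus strand) and the Jun probe at chr4:94716928-94716987 (minus strand). Exon and UTR annotation of that build was not used here.
Ier3: tgctgtaacacagatatttattacgattta
Fos: ggactttattttccagtagatagaaatcaa
Nr4a1: ctcttccgctctccttccatgtgtacataa
Atf3: cacagcagctttgtccttggctacaaactg
Jun: atgctaacgcagcagttgcaaacgttttga

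The diet differences of these genes had no common direction. The question was whether low salt shifted their expression in the ventricle. Of the 10 members, 5 had a higher and 5 a lower mean on low salt, with log2 differences from -0.88 for Ier3 to 0.91 for Nr4a1. The median difference was 0.03, beside 0.01 over all genes. None of the 10 passed an adjusted p of 0.05 in limma (0.805% of all genes did), and 1, Ier3, had an unadjusted p under 0.05 (11.2% of all genes did). The ranges of the diets did not overlap in 1 member, again Ier3, with low salt beneath (4.78% of genes showed this). No member had low salt entirely above (8.04% of genes did). Taking the dyes one at a time, Ier3 was past 1.5-fold downward in each, which held for 1.33% of genes. No member was past 1.5-fold upward in each, which held for 1.97%.

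**Figure D1:**
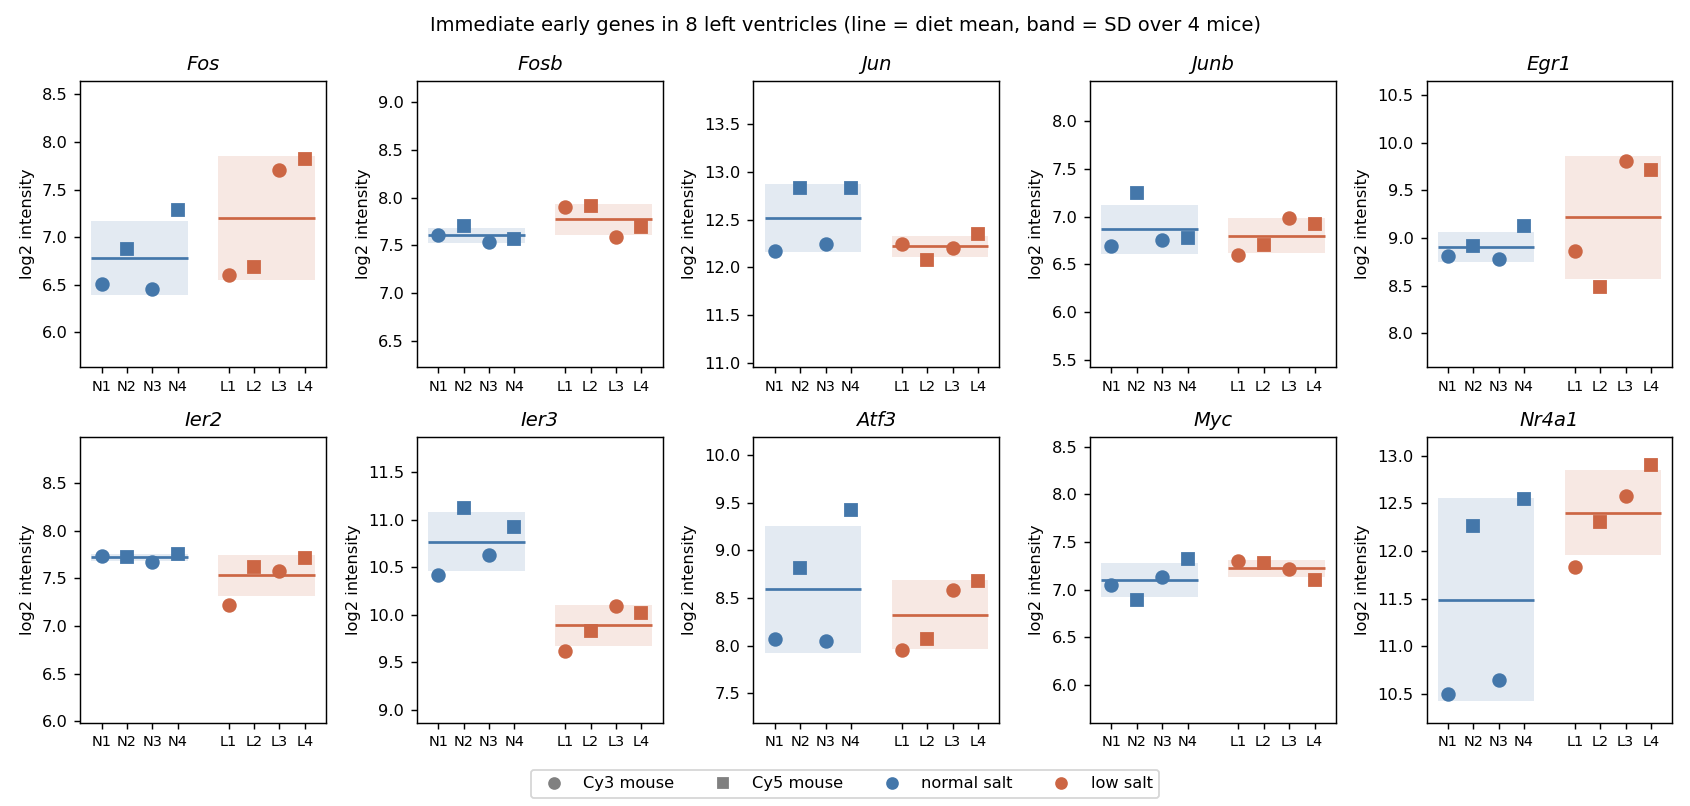
Log2 intensity of each gene (vertical axis) in the 4 normal salt and 4 low salt mice, with Cy3 and Cy5 mice marked by shape, a line at the mean of each diet and a band of 1 SD either side. The diets are apart without overlap for Ier3 alone. Fos and Egr1 are highest in low salt mice 3 and 4, and Nr4a1 is lowest in normal salt mice 1 and 3.

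FOS, FOSB, JUN and JUNB are the subunits of AP-1, in which a FOS protein pairs with a JUN protein, or JUN proteins pair with each other, to bind DNA. Fos was at 6.50, 6.88, 6.46 and 7.29 in normal salt mice 1 to 4 and at 6.60, 6.69, 7.70 and 7.82 in low salt mice 1 to 4. Low salt mice 3 and 4 were above every other mouse, while low salt mice 1 and 2 lay within the normal salt range. The means were 6.78 ± 0.39 and 7.20 ± 0.65 (SD, n = 4 each), and limma gave a difference of 0.42 ± 0.35 (SE) with an adjusted p of 0.660. Fos was a dim probe, not well above background in normal salt mice 1 and 3 and low salt mouse 1, all in Cy3. Low salt mouse 2, in Cy5, passed with a raw signal of 78.7, below the 91 of normal salt mouse 1. With the scanner's own processed signal, the diet difference of Fos was 1.43, with an adjusted p of 0.581 in limma.

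Fos was spotted 10 times on each array, which gives the spot-to-spot error within an array, but not that of labelling, hybridisation or the array. The SD over spots ran from 0.06 to 0.19 in the 8 samples. In low salt mouse 3 the 10 spots ranged from 7.50 to 7.92 and in low salt mouse 4 from 7.62 to 8.10. In low salt mouse 1 they ranged from 6.51 to 6.67 over 8 spots, 2 having been left out as outliers, and in low salt mouse 2 from 6.55 to 6.90. The spots of the low salt mice on one array did not overlap those of the mice on the other. Error between arrays was not measured by these spots.

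**Figure D2:**
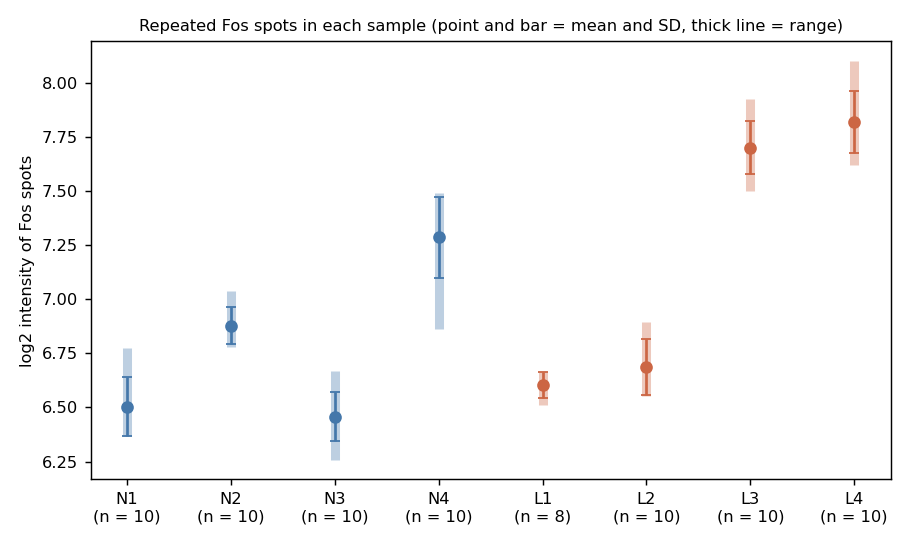
Log2 intensity of the Fos spots kept (vertical axis) in each of the 8 mice (horizontal axis), as mean (point), SD (bar) and range (thick line). The ranges of low salt mice 3 and 4 lie at 7.50 or above, and those of the other mice at 7.49 or below.

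Fosb, the FOS relative that accumulates with repeated stimulation as a truncated form, differed little. It was at 7.61, 7.71, 7.53 and 7.57 on normal salt and at 7.90, 7.92, 7.58 and 7.70 on low salt. Low salt mice 1 and 2 were the highest, and the diets overlapped. The difference was 0.17 ± 0.11 (SE), the same in Cy3 (0.17) and Cy5 (0.17), with an adjusted p of 0.579 in limma.

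Jun, the main partner of FOS in AP-1, was at 12.17, 12.83, 12.25 and 12.83 on normal salt and at 12.24, 12.08, 12.20 and 12.35 on low salt. Normal salt mice 2 and 4 stood above the other 6 mice, which lay within 0.28 of each other. The difference was -0.30 ± 0.24 (SE; adjusted p = 0.640 in limma), and it was 0.01 among the Cy3 mice and -0.61 among the Cy5 mice. Junb, a JUN protein that can oppose JUN at many promoters, was at 6.70, 7.25, 6.75 and 6.77 on normal salt and at 6.59, 6.70, 6.98 and 6.93 on low salt. It was not well above background in normal salt mice 1 and 3 and low salt mouse 1, all in Cy3. Its difference was -0.07 ± 0.20 (SE; adjusted p = 0.915 in limma) and was 0.06 without normal salt mouse 2.

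EGR1 is a zinc finger factor of the EGR family, induced by growth factors and stretch, and NR4A1 is an orphan nuclear receptor whose activity is set by its amount. Egr1 was at 8.82, 8.92, 8.78 and 9.13 on normal salt and at 8.87, 8.49, 9.81 and 9.71 on low salt. As for Fos, low salt mice 3 and 4 were above all others, and low salt mouse 2 was the lowest of the 8. The means were 8.91 ± 0.16 and 9.22 ± 0.64 (SD, n = 4 each), and the difference was 0.31 ± 0.33 (SE) with an adjusted p of 0.740 in limma.

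Nr4a1 had the largest difference of the 10 in the higher direction and the largest SD among normal salt mice. It was at 10.50, 12.27, 10.65 and 12.54 on normal salt and at 11.84, 12.31, 12.57 and 12.90 on low salt. Normal salt mice 1 and 3, both in Cy3, stood below all others, and normal salt mice 2 and 4 lay within the low salt range. The means were 11.49 ± 1.06 and 12.40 ± 0.45 (SD, n = 4 each). The difference of 0.91 ± 0.51 (SE), 1.88-fold, had an adjusted p of 0.528 in limma. It was 1.63 among the Cy3 mice and 0.20 among the Cy5 mice.

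IER2 and IER3 are small early response proteins, IER2 a nuclear protein and IER3 (also called IEX-1) a regulator of cell survival under stress. Ier3 was at 10.41, 11.12, 10.62 and 10.92 on normal salt and at 9.62, 9.83, 10.10 and 10.02 on low salt. The highest low salt mouse was 0.32 below the lowest normal salt mouse. The means were 10.77 ± 0.31 and 9.89 ± 0.21 (SD, n = 4 each), a difference of -0.88 ± 0.22 (SE) or 1.84-fold lower on low salt. Its unadjusted p was 0.00349 and its adjusted p 0.161 in limma, so it did not pass over all genes. The difference was -0.66 among the Cy3 mice and -1.10 among the Cy5 mice. The adjusted p was 0.0251 in limma with the second low salt array (mice 3 and 4) left out, where the difference was -1.05. That fit leaves low salt on a single array. With no array block the adjusted p was 0.0202 in limma, but that fit takes the 2 mice of an array as independent. With each array averaged to 1 value it was 0.250. Over all 27 alternatives tried the adjusted p ran from 0.0202 to 0.968, and it was above 0.05 in 25 of them.

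Ier3 is set here beside the marker lists with the largest medians, with values centred on their dye's mean and averaged over each list in each mouse. The nerve and Schwann cell list (6 measured, 4 lower on low salt, median -0.39) ran from 0.06 to 0.18 on normal salt and from -0.17 to -0.07 on low salt. The macrophage list (9 measured, 8 higher on low salt, median 0.24) ran from -0.23 to -0.03 on normal salt and from -0.01 to 0.25 on low salt. The endothelial list (11 measured, 8 lower, median -0.36) ran from -0.00 to 0.33 and from -0.22 to 0.05. The atrial list (8 measured, 7 lower, median -0.54) ran from -0.43 to 1.34 and from -0.65 to -0.01, and the blood list (4 measured, 4 lower, median -0.18) from -0.09 to 0.38 and from -0.33 to 0.16. The nerve and macrophage ranges did not overlap between diets, and those of the other 3 lists did. The marker lists not shown here overlapped too. Because these 5 lists were taken for their diet medians, a separation by diet is partly a result of that choice. No gene of these lists passed an adjusted p of 0.05 in limma. An unadjusted p under 0.05 was found for 5 nerve, 1 macrophage, 3 endothelial, 1 atrial and 0 blood genes (11.2% of all genes). Their part in the Ier3 difference was not tested.

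Ier2 was at 7.73, 7.73, 7.67 and 7.75 on normal salt and at 7.22, 7.62, 7.57 and 7.72 on low salt. Low salt mouse 1 was the lowest, and low salt mouse 4 lay within the narrow normal salt range. The difference was -0.19 ± 0.14 (SE; adjusted p = 0.625 in limma).

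ATF3 is a stress-induced factor of the ATF/CREB family that often represses its targets. Atf3 was at 8.07, 8.82, 8.05 and 9.43 on normal salt and at 7.96, 8.07, 8.58 and 8.68 on low salt. The highest value belonged to normal salt mouse 4 and the lowest to low salt mouse 1, and the diets overlapped. The difference was -0.27 ± 0.39 (SE; adjusted p = 0.817 in limma), made of 0.21 in Cy3 and -0.74 in Cy5. MYC drives genes of ribosome production and cell growth. Myc was at 7.05, 6.89, 7.13 and 7.32 on normal salt and at 7.29, 7.28, 7.22 and 7.10 on low salt, a difference of 0.12 ± 0.14 (SE; adjusted p = 0.758 in limma).

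**Figure D3:**
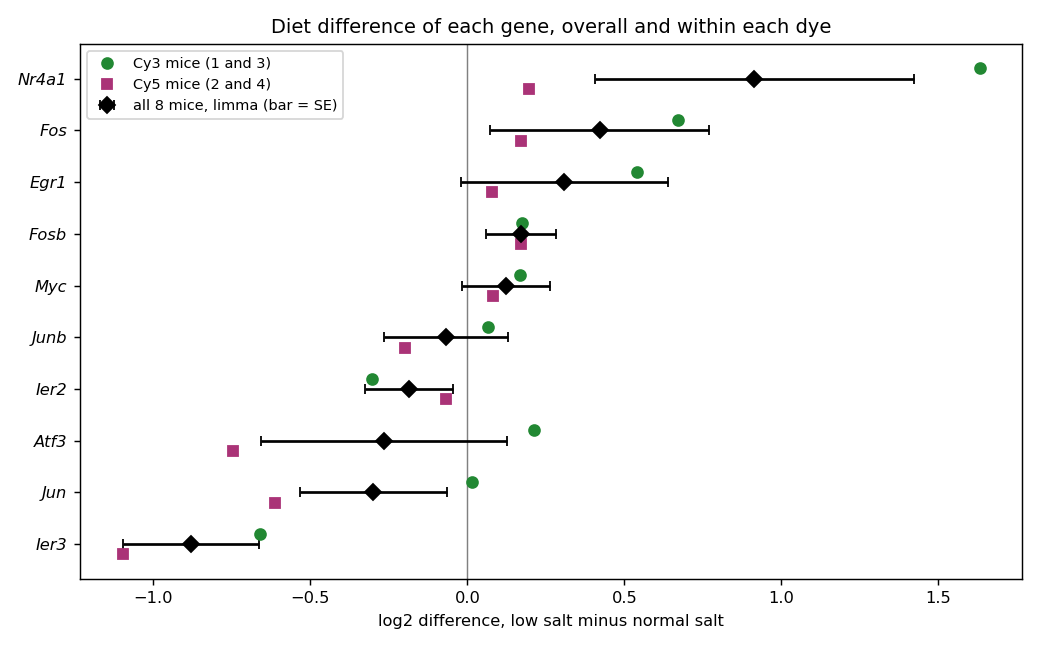
Log2 difference of low salt minus normal salt for each gene (horizontal axis), as fitted over all 8 mice with its SE, and taken within the Cy3 mice and within the Cy5 mice. Nr4a1 runs from 0.20 in Cy5 to 1.63 in Cy3 and Atf3 from -0.74 to 0.21, while Ier3 is below 0 in both dyes.

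The members differed from each other in how the dyes compared. In normal salt, both Cy5 mice lay above both Cy3 mice for 7 of the 10 members, which held for 22.0% of genes. In low salt this was so for 1 member, Ier2, and for 19.0% of genes. The normal salt gap, Cy5 mice minus Cy3 mice, was 1.83 for Nr4a1 (3.56-fold), 1.06 for Atf3, 0.62 for Jun, 0.60 for Fos and 0.50 for Ier3. Counting only gaps with Cy5 above Cy3, 0.0331% of genes had one as large as that of Nr4a1 and 0.188% as large as that of Atf3. In low salt the corresponding gaps were 0.40, 0.11, -0.01, 0.10 and 0.06. The dye gap after normalization had a median of 0.01 over all genes in either diet. Normalization within arrays sets this median near 0, so it does not measure how far the dyes agree.

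The difference between those gaps is the diet-by-dye term of the model, which was added after the values had been seen. For Nr4a1 it was -1.43 ± 0.20 (SE), with an unadjusted p of 0.000173 and an adjusted p of 0.191 in limma. For Jun it was -0.63 ± 0.13 (SE; unadjusted p = 0.00145, adjusted p = 0.476 in limma), and for Atf3 -0.96 ± 0.25 (SE; unadjusted p = 0.00689, adjusted p = 0.560 in limma). Ier3 was the fourth member with an unadjusted p under 0.05, at -0.44 ± 0.18 (SE; adjusted p = 0.733 in limma). Of all genes, 6.79% had an unadjusted p under 0.05 for this term, 1239 in number, and none passed after adjustment. Each mouse was measured in 1 dye only, so dye and mouse cannot be told apart here. Among the 11 marker lists, the blood list (4 measured) had both Cy5 mice of normal salt, at 0.38 and 0.12, above both Cy3 mice, at -0.05 and -0.09, after dye centring. The other 10 lists did not. Its part in the gaps was not tested.

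The other main division lay between the arrays of the low salt mice. Low salt mice 3 and 4 averaged above low salt mice 1 and 2 for 8 of the 10 members, with a median gap of 0.32. The median over all genes was -0.06, so more genes had a gap below 0 than above. Their exact share was not counted. The gap was 1.12 for Fos (2.17-fold), 1.08 for Egr1 (2.12-fold), 0.66 for Nr4a1 and 0.62 for Atf3. A gap of either sign as large as that of Fos was found in 0.911% of genes, and as large as that of Egr1 in 1.06%. Ier3 and Junb had gaps of 0.33 and 0.31, Ier2 of 0.22 and Jun of 0.12. Myc and Fosb went the other way, at -0.13 and -0.27. Between the arrays of the normal salt mice the median gap of the members was 0.06, and no member exceeded 0.30.

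**Figure D4:**
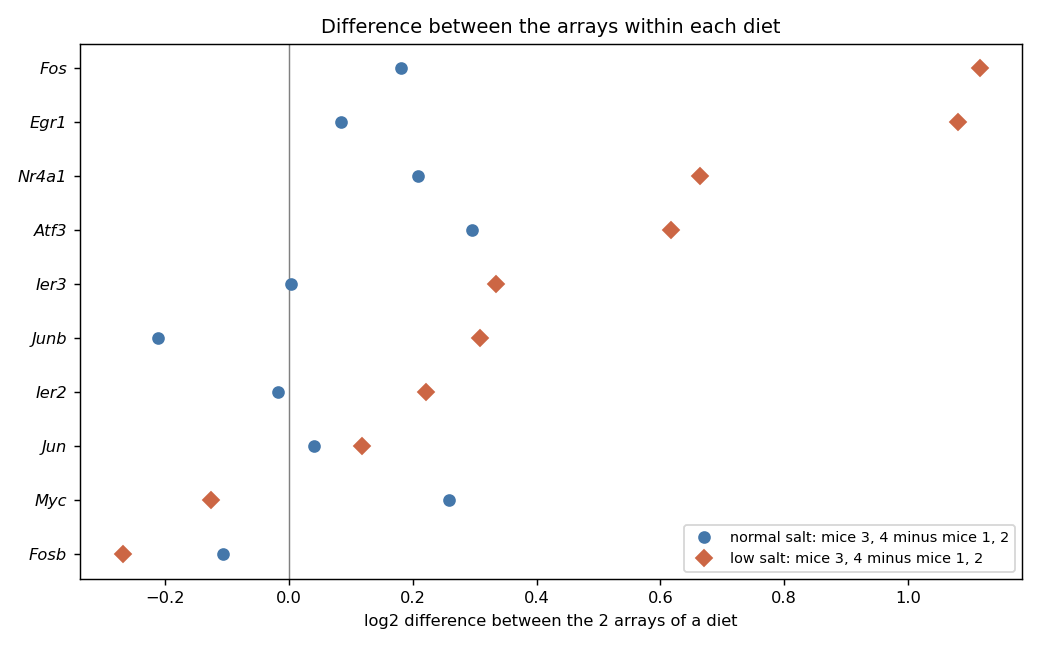
Log2 difference between the 2 arrays of each diet, mice 3 and 4 minus mice 1 and 2 (horizontal axis), for each gene. On low salt, Fos and Egr1 differ by more than 1.0 between arrays, whereas on normal salt all 10 genes lie between -0.21 and 0.30.

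With the second low salt array (mice 3 and 4) left out, the diet difference of Fos was -0.14 and that of Egr1 -0.23. With the first low salt array (mice 1 and 2) left out, they were 0.98 and 0.85. Both differences therefore took their sign from which low salt array was used. The median over the 10 members moved from 0.03 to -0.23 without mice 3 and 4. Array and mouse pair cannot be told apart. Of the 11 marker lists, the cardiomyocyte and the smooth muscle lists had both of these mice above the other low salt mice. The cardiomyocyte list averaged -0.19, -0.09, 0.09 and -0.04 in low salt mice 1 to 4, and the smooth muscle and pericyte list -0.15, -0.34, -0.09 and 0.25. Their part in the Fos and Egr1 values was not tested.

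The spread between mice that shared both diet and dye was taken after removal of the mean of each such pair, which also removes the dye gaps given above. The mice of each such pair were on different arrays, so this spread includes the array gaps given above. Array and mouse cannot be told apart in it. The SD within these pairs was 0.58 for Fos, 0.55 for Egr1, 0.38 for Atf3 and 0.35 for Nr4a1. By this measure, a spread as large was found in 2.87%, 3.28%, 8.53% and 9.89% of genes. The other 6 members lay between 0.10 and 0.23, with Jun, whose normal salt gap lay between the dyes, the lowest. The median of the members was 0.22, beside 0.14 over all genes.

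Across the 8 mice, each value centred on its dye's mean, Egr1 followed Fos with a Pearson r of 0.985 and a Spearman rho of 0.976. These 8 points share 4 arrays and are given with no p. None of 18030 genes outside the members had a higher r with Fos. Because low salt mice 3 and 4 stand apart, r was also taken over the other 6 mice, where it was 0.911. Nr4a1 had an r of 0.799 with Fos, and 0.422 over those 6 mice. Atf3 had 0.570, and 0.921 over those 6 mice. The AP-1 members Jun, Junb and Fosb had an r of 0.044, 0.367 and -0.352 with Fos.

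The 5 genes outside the members with the highest r with Fos were Zfp788 (0.980), Fnip2 (0.976), Chrna6 (0.968), H2-DMa (0.965) and Ncs1 (0.964). Over the 6 mice without low salt mice 3 and 4, their r ran from 0.677 to 0.879. H2-DMa, which encodes a chain of the class II peptide loader, was at 8.26, 8.09, 8.12 and 8.23 on normal salt and at 8.34, 8.07, 9.87 and 9.18 on low salt. Its likeness to Fos is what it was chosen for.

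Genes around the members in the same signalling pathway were examined as 7 lists, and no gene in them passed an adjusted p of 0.05 in limma. Of all genes, 11.2% had an unadjusted p under 0.05 in limma. All low salt mice were below all normal salt mice in 4.78% of genes and above them in 8.04%. Of 13 other AP-1 family genes measured, 7 were higher and 6 lower on low salt (median 0.02), and 1 had an unadjusted p under 0.05. This was Atf4, a factor of the amino acid and unfolded protein response, which was lower by 0.36 with no overlap between diets (difference -0.36, adjusted p = 0.348). Mafk, a small MAF protein, came next at 0.22 (adjusted p = 0.455 in limma). Of 3 EGR and NR4A relatives and EGR co-repressors measured, 1 was higher and 2 were lower. Nr4a2, a close relative of Nr4a1, differed by -0.14 and Nab2, a co-repressor of EGR1, by 0.09.

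Of 36 other immediate early genes measured, 13 were higher and 23 lower on low salt (median -0.08). Of these 36, 4 had an unadjusted p under 0.05 in limma, beside 11.2% of all genes. Csrnp1, a nuclear protein induced by AXIN1, ran from 9.62 to 10.13 on normal salt and from 10.42 to 10.55 on low salt. The ranges did not overlap, and the difference was 0.64 ± 0.16 (SE; adjusted p = 0.158 in limma). Ccn1, a matricellular protein formerly called Cyr61, was also above in all low salt mice, by 0.46 ± 0.12 (SE; adjusted p = 0.180 in limma). Of 7 dual-specificity phosphatases, which switch MAP kinases off, 5 were higher and 2 lower (median 0.07). Dusp6 differed by 0.58 (adjusted p = 0.452 in limma) and Dusp10 by 0.31 (adjusted p = 0.567 in limma). Both lay on parts of the array where neighbouring probes differed by 0.29 between the diets, whereas none of the 10 members had such a local difference above 0.2.

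Of 7 MYC network genes, 3 were higher and 4 lower (median -0.14). Max, the partner MYC needs to bind DNA, differed by -0.30 (adjusted p = 0.521 in limma), and Mnt, a repressor that competes for MAX, by -0.25 (adjusted p = 0.535 in limma). Of 20 upstream kinases, 11 were higher and 9 lower (median 0.03), with 1 at an unadjusted p under 0.05. Camk2d, the main calcium/calmodulin kinase II of heart muscle, differed by 0.33 (adjusted p = 0.440 in limma) and Rps6ka5 (MSK1) by -0.27 (adjusted p = 0.464 in limma). Of 20 upstream transcription factors and cofactors, 8 were higher and 12 lower (median -0.04). An unadjusted p under 0.05 in limma was found for 5 of them, beside 11.2% of all genes. Crem, a cyclic AMP responsive factor, was at 8.00, 8.06, 8.05 and 8.28 on normal salt and at 8.39, 8.52, 8.70 and 8.82 on low salt. It was above in all low salt mice, by 0.51 ± 0.12 (SE), with an adjusted p of 0.150 in limma. Hdac4, a histone deacetylase that binds MEF2, differed by -0.56 (adjusted p = 0.434 in limma).

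The promoters of the members were also read for short motifs. Windows from 250 bases before to 50 after the start site were held for 7 members in the RefSeq promoter table (GRCm38.p6): Fos, Fosb, Jun, Junb, Atf3, Nr4a1 and Ier3. The core of the cyclic AMP response element, TGACG on either strand, was in 5 of these 7 windows (Fos, Fosb, Junb, Atf3 and Nr4a1) and in 20.8% of the 32851 windows of the table. The full palindrome TGACGTCA, which contains the core, was in none of the 7 and in 1.79% of the table. The AP-1 site TGANTCA was in none of the 7 and in 7.81%. The EGR site GCGGGGGCG was in Fosb and Nr4a1, starting 50 and 60 bases before the start site, and in 2.91% of the table. The CArG box of serum response factor was in none of the 7 windows and in 1.63%. A match is only the presence of these letters, and its absence says nothing beyond this window. Egr1, the member with the highest r with Fos, had no window in the table. Any link between these motifs and the members' values was not tested.

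Below are the 250 bases before the start site, from the RefSeq table (GRCm38.p6), of 3 members that differed between mice in different ways. They are written 5′ to 3′ on the gene's strand, with the core TGACG or its reverse complement CGTCA in capitals. Fos (chr12:85473640-85473889, plus strand) had 2 cores, Nr4a1 (chr15:101266596-101266845, plus strand) had 4 and Ier3 (chr17:35821463-35821712, plus strand) had 0. Of the members with a window that are not shown, Fosb, Junb and Atf3 had 1 each and Jun had 0. Of all windows of this length, 17.8% held at least 1.
Fos: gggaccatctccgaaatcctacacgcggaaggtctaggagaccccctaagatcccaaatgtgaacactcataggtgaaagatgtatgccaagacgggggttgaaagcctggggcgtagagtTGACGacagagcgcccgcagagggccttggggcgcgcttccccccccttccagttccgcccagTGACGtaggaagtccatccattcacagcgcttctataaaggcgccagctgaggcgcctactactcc
Nr4a1: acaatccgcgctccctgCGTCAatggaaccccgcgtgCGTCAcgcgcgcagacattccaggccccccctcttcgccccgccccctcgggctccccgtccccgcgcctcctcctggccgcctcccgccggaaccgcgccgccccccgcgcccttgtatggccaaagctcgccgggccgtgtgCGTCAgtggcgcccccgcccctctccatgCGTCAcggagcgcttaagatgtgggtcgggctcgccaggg
Ier3: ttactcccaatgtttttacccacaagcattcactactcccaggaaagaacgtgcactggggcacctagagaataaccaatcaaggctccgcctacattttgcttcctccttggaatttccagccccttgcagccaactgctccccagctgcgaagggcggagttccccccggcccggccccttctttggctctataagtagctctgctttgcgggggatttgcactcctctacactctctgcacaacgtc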

How the data were processed

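Left ventricular RNA of 8 mice was hybridised to 4 Agilent 2-colour arrays, 1 mouse per dye. The deposited files hold spot intensities from Agilent Feature Extraction, per the file headers; the mean signal, local background and outlier flags were used. The deposited value table of the series was not used, because its rows could not be matched to the spots. Intensities were background-corrected (limma 3.58.1 in R 4.3.3, normexp, offset 50), loess-normalized within arrays, Aquantile-normalized between arrays and analysed as log2 values per dye. Outlier spots were left out, and a probe's spots were averaged. A probe was kept if 4 or more of the 8 samples were well above background, and the brightest probe stood for its gene, which gave 18250 genes. Symbols were updated through RefSeq accessions where these matched.

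The limma model held diet and dye, with the array as random block (correlation 0.557), with Benjamini-Hochberg adjustment over all genes, 2-sided. The labels do not say more about the replicates than that they are separate mice. With 4 arrays the precision is limited by their number. The fit was tested on simulated data with the genes' own means and spread. It recovered 76 of 100 genes changed by a log2 of 1 and 90 of 100 changed by 2, with 9 false calls. A change of this size can therefore be missed. Named genes were all 10 members, from each pathway list those past the threshold or else the 2 with the smallest p, and the 5 genes most correlated with Fos. The members and lists were chosen with earlier results of these data known. Alternatives covered background, normalization, filter, block, dye, local trend and omitted mice or arrays.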

Additional observations from a re-analysis of the deposited data

Results flagged for a closer look

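One value stood far from the rest of its group. Junb in normal salt mouse 2 was at 7.25, whereas the other 3 normal salt mice lay between 6.70 and 6.77. The gap to the nearest of them was 0.859 of the group's range, above Dixon's 95% critical value for 4 samples. Such a test marks about 1 group in 20 by chance, and 20 groups (10 genes in 2 diets) were looked at. Junb was a dim probe, not well above background in normal salt mice 1 and 3, both in Cy3. Neighbouring probes in the same sample lay 0.199 above their mean over samples, the largest such local deviation among the values of the 10 genes. With the local trend subtracted, the diet difference of Junb was 0.074 in place of -0.067. The part of low signal and of the local deviation in this value was not tested further.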

How the results depend on the processing

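Over all genes the count of 147 calls was 36 with the scanner's processed signal (30 higher, 6 lower) and 74 with the local trend subtracted (59 higher, 15 lower). It was 14 on the 17438 genes of the evenly hybridised parts alone (added after seeing the data) and 629 with no array block (487 higher, 142 lower). It was 0 with no normalization between arrays (781 at an unadjusted p under 0.05), 0 with each array averaged (1590), 0 with Cy3 mice alone (1862) and 0 with Cy5 mice alone (1261), in limma. With the mouse number as a replicate block it was 233 (213 higher, 20 lower) and no member was called, the adjusted p of Ier3 being 0.0811. Same-numbered mice correlated at 0.145 to 0.305, and at -0.008 to 0.136 once the mean of each dye was removed. That mean includes both mice, so removing it lowers the correlation by itself, and these values do not settle whether mice were paired. The numbers were not taken as pairs, because the dye follows the number. The count was 276, 242, 87 and 1090 (437 higher, 653 lower) with normal array 1-2, normal array 3-4, low array 1-2 and low array 3-4 omitted (arrays named by diet and mice), and 53 to 128 without 1 mouse. Without an array, 1 diet rests on a single array.

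The count of members called was 1 (Ier3) with no array block, a fit that takes the 2 mice of an array as independent. It was 1 (Ier3) without low array 3-4, and 0 in the other alternatives. The median of the members was -0.227 without low array 3-4. The count of members 1.5-fold apart in both dyes was 0 to 2 without 1 mouse, 0 without normal array 3-4, 2 without low array 1-2, and 0 at a 2-fold limit. The sign turned for Junb (0.074 with the local trend subtracted, 0.064 in Cy3, 0.038 without normal array 1-2, 0.087 without low array 1-2, and -0.166 to 0.062 without 1 mouse), Jun (0.015 in Cy3), Atf3 (0.212 in Cy3, 0.042 without low array 1-2), Myc (-0.006 without normal array 1-2), Fos (-0.137) and Egr1 (-0.232), both without low array 3-4. The causes were not tested. Fos and Junb were not measured when every sample had to be well above background. Ier3 ran from -1.10 to -0.66, with adjusted p from 0.0202 to 0.968, over 27 alternatives. Fosb ran from 0.04 to 0.31, Ier2 from -0.38 to -0.07 and Nr4a1 from 0.20 to 1.63, with no change of sign.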
